A study of Mus musculus with 2 samples.

Results

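The ADAM genes encode membrane proteins with a metalloproteinase and a disintegrin domain, and the ADAMTS genes encode secreted relatives that carry thrombospondin repeats. Members were all protein-coding genes whose symbol begins with Adam and a number, Adamts and a number, Adamtsl and a number, or Adamdec. The rule found 58 of the 22046 protein-coding genes in the deposited table, among 54532 genes in all. Of these, 36 had a mean of at least 1 FPKM over the libraries, and these are called measured; FPKM is the number of fragments scaled for the length of the gene and the size of the library. They fell into 6 classes by known role: 2 epididymal ADAM genes, 20 ADAM genes of germ cells, 9 broadly expressed ADAM genes, 3 neural ADAM genes, 19 ADAMTS genes of the extracellular matrix and 5 ADAMTS-like genes. The broadly expressed class took in all ADAM genes of other somatic cells, so it also holds Adam8 and Adamdec1, known from leukocytes, and Adam33, known from mesenchymal cells.

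RNA was sequenced from mouse material labelled adipose, from a Trappc9 knockout (KO) and from wild type (WT), both aged 3 to 4 weeks, with 1 library per genotype. Trappc9 encodes a subunit of the TRAPP vesicle-tethering complexes. The design text names 3 KO and 3 WT mice and fat pads digested with collagenase, the protocol names fat pads frozen whole, and the titles name stem cells derived from fat. Which preparation gave the libraries, and whether the mice were pooled, could not be settled from these labels, which name no sex, strain or type of allele.

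An ADAM protease cuts the outer part of membrane proteins near the cell surface and so releases growth factors, cytokines and adhesion molecules, a step called shedding. Germ cells use a separate set of ADAM proteins on the sperm surface, many of which have lost protease activity and serve in sperm migration and egg binding. The epithelium of the epididymis, the duct where sperm gain motility, makes further ADAM proteins that reach the sperm. ADAMTS proteases act outside the cell on proteoglycans, procollagens and fibrillin microfibrils, and the ADAMTS-like proteins share their ancillary domains but have no protease domain.

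ADAM and ADAMTS proteases hold their catalytic zinc with 3 histidines, in a site whose key residues are encoded by 5 codons within a window of 11 codons (33 bases). These are histidine codons at places 1, 5 and 11, a glutamate codon at place 2, and a glycine or asparagine codon at place 8. The site is shown because it holds the catalytic zinc, and because it differs between 3 neighbouring genes. The number of key codons does not by itself show whether a product is an active protease, and activity was not measured. Each sequence was read in frame from the longest complete coding transcript in GENCODE M21 (GRCm38, also called mm10), from the coding strand and 5′ to 3′, with the key codons in capitals.
Adam7: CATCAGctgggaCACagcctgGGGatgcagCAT
Adamdec1: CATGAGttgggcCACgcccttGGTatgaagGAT
Adam28: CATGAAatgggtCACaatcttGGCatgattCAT
Adam9: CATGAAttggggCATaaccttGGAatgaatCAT
Adam10: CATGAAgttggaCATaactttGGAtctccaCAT
Adam17: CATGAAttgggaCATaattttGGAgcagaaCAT
Adamts1: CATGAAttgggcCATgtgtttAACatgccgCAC
Adamts4: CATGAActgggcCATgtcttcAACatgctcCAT
Adamts2: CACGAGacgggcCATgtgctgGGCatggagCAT
These windows lie on the minus strand at chr14:68516614-68516646 for Adam7, chr14:68570127-68570159 for Adamdec1 and chr14:68633167-68633199 for Adam28. They lie at chr8:24990326-24990358 for Adam9 and chr12:21336732-21336764 for Adam17, again on the minus strand and inside 1 coding exon each. The windows of Adam10 (chr9:70754296-70761585, plus strand), Adamts1 (chr16:85799191-85799545, minus strand), Adamts4 (chr1:171253210-171253915, plus strand) and Adamts2 (chr11:50775403-50776134, plus strand) are interrupted by an intron in the genome.

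Counting bases from 1 at the 5′ end of the window, with the base of Adam28 first, Adam7 differed in the glutamate codon by G4C and A6G, and so had no glutamate codon there. The histidine codon at place 11 was absent from Adamdec1, which had C31G. Over the 33 bases, Adam28 differed from Adam7 at 11, from Adamdec1 at 10 and from Adam9 at 6. Among the 53 genes outside the ADAMTS-like class, 38 had all 5 key codons, 4 had 4 of them and 11 had 3 or fewer. The 5 ADAMTS-like genes and the 3 neural ADAM genes had no window with more than 3. Of the 19 ADAMTS genes, 18 had the complete site, and Adamts8 lacked the codon counted at place 8. Broadly expressed ADAM genes had the complete site in 8 of 9, with Adamdec1 the exception.

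**Figure D1:**
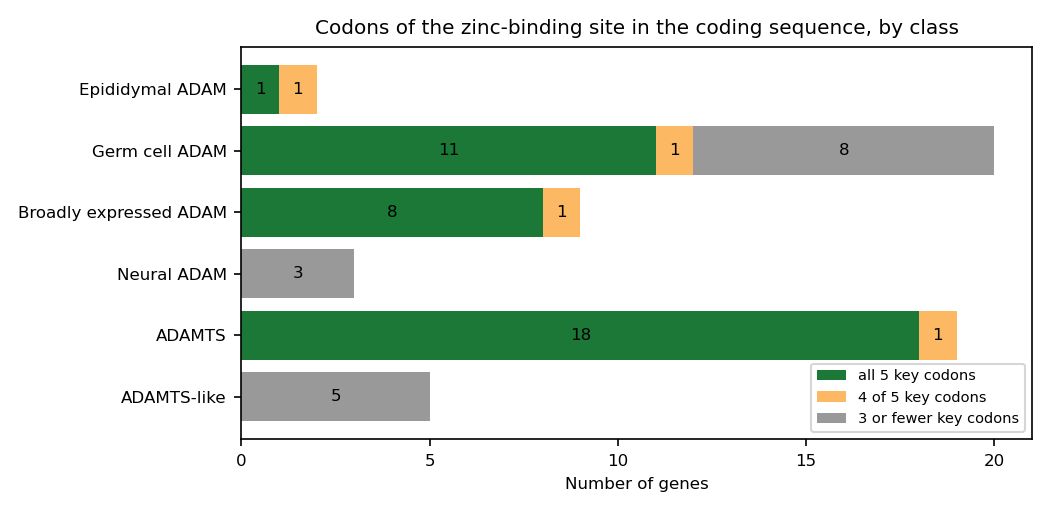
Number of ADAM and ADAMTS genes (horizontal axis) in each class (vertical axis) by how many of the 5 key codons of the zinc-binding site occur in 1 window of the coding sequence. The site is complete in 8 of 9 broadly expressed ADAM genes and 18 of 19 ADAMTS genes, and in 0 of the 3 neural ADAM and 5 ADAMTS-like genes.

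Measured and low germ cell ADAM genes differed in this site. The 5 measured ones, Adam2, Adam3, Adam5, Adam18 and Adam32, had 3 or fewer key codons. Among the 15 below 1 FPKM, 11 had the complete site, 1 (Adam29) had 4 codons and 3 had 3 or fewer. Summed per length, transcripts of members with 4 key codons exceeded those with the complete site. Summed FPKM was 1897.6 in the KO-labelled and 1449.8 in the WT-labelled library over the 4 genes with 4 key codons, almost wholly Adam7. Over the 38 genes with the complete site it was 352 and 313 FPKM in the same order of libraries.

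The libraries are named by their labels, because the targeted gene did not separate them. Trappc9 stood at 12.6 FPKM in the KO-labelled library and 9.94 FPKM in the WT-labelled library (1432 and 1117 fragments), a ratio of 1.27 with a 95% counting interval of 1.17 to 1.37. A value for the whole gene cannot show a deletion that leaves most of the transcript. Fragments recovered from the deposited values numbered 14783728 in the KO-labelled and 13705193 in the WT-labelled library. The 6 markers of fat cells stood at 4.17 FPKM or less in the KO-labelled and 5.82 FPKM or less in the WT-labelled library, with Adipoq at 0.51 FPKM in the KO-labelled and 2.30 FPKM in the WT-labelled library. Markers of adipose progenitors were higher in level, with Pdgfra at 30.7 FPKM in the KO-labelled and 34.2 FPKM in the WT-labelled library. All 16 epididymal markers stood at 102.9 FPKM or more in the KO-labelled library and 12.1 FPKM or more in the WT-labelled one.

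Differences are given as the KO over WT ratio of FPKM, with an exact 95% Clopper-Pearson interval from the fragments, or as log2((KO + 1)/(WT + 1)), in which a pseudocount of 1 FPKM understates the change of low genes. A gene is called higher or lower beyond counting error where the interval excludes a ratio of 1. As each genotype has a single library, no difference has a replicate check, no p-value is given, and the intervals compare the pair of libraries, not the genotypes. In RNA from mixed cells, fewer cells of a type and less RNA per cell cannot be told apart.

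Over all measured members, 21 of 36 were lower beyond counting error in the KO-labelled library and 5 were higher. Among all 13084 measured protein-coding genes the shares were 17.6% lower and 24.6% higher. The median log2 ratio was −0.21 over the members and 0.02 over all genes. With values rescaled to TPM, 29 members were lower and 4 higher, against 6337 and 1031 of all genes, 48.4% and 7.88%. At the threshold of 2-fold on the log2 scale, 0 of the 36 members were called in either direction, beside 0.948% of all genes higher and 0.29% lower. The span of the members ran from −0.92 for Adam32 to 0.76 for Adam28, so each member differed by less than 2-fold between the libraries on this scale.

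**Figure D2:**
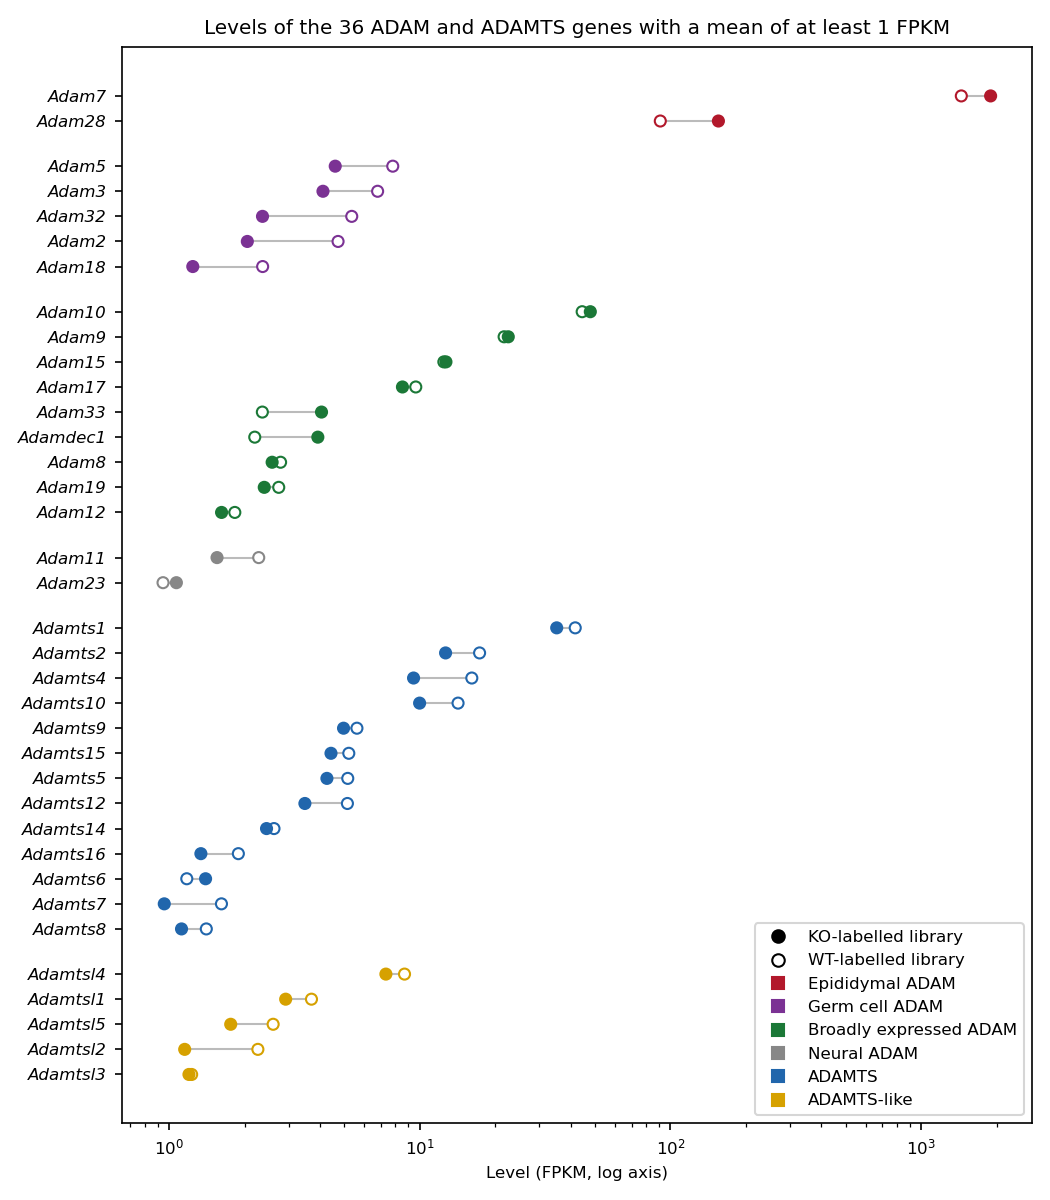
Level in FPKM on a log axis (horizontal) of the 36 measured members, grouped by class (vertical). Filled points are the KO-labelled library and open points the WT-labelled library. Adam7 stands at 1893 and 1446 FPKM, far right of every other member, and the 5 germ cell genes have their filled points left of their open points.

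Adam7 was the most abundant member by far. It encodes an epididymal membrane protein that is transferred to sperm in the mouse. Adam7 (ENSMUSG00000022056, chr14:68497336-68533741, minus strand) was at 1893 FPKM in the KO-labelled library, from 117217 fragments, and at 1446 FPKM in the WT-labelled library, from 88686 fragments. That placed it 17th among protein-coding genes of the KO-labelled library and 15th in the WT-labelled one. The KO-labelled library was the higher one, with a ratio of 1.31 and a counting interval of 1.30 to 1.32. That interval leaves out the choice of scaling: the log2 ratio was 0.39 as deposited, 0.29 relative to total fragments and 0.19 in TPM. Its level per length was 39.5 times that of Adam10, the next most abundant ADAM gene outside the epididymal class, in the KO-labelled library and 32.5 times in the WT-labelled one.

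Adam28 was the other epididymal member and was also higher in the KO-labelled library. It encodes a protease known from human lymphocytes and, under another name, from the macaque epididymis. Adam28 (ENSMUSG00000014725, chr14:68606027-68655842, minus strand) was at 155 FPKM in the KO-labelled library and 91.1 FPKM in the WT-labelled library, from 20406 and 11850 fragments. Its ratio was 1.71 (interval 1.67 to 1.74). The ratio of Adam28 was 1.30 times that of Adam7 (interval 1.27 to 1.33, from the odds ratio of the fragments, which does not depend on the scaling between libraries). Epididymal genes together held 89.7% of the summed member FPKM in the KO-labelled library and 84.8% in the WT-labelled one.

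Markers of the epididymal epithelium moved with both genes. On the deposited scaling, all 15 markers other than Adam7 were higher beyond counting error in the KO-labelled library, where 24.6% of all genes were. Their summed fragments had a ratio of 1.33 (interval 1.32 to 1.33). More than any other marker, Gpx5 set that sum, with 279824 of the 540665 fragments in the KO-labelled library and a ratio of 1.16. Set against the summed markers, the ratio of Adam7 was 0.987 times theirs (interval 0.977 to 0.996) and that of Adam28 was 1.29 times theirs (interval 1.26 to 1.32). Adam7 was thus the nearer of the pair to the summed markers, but with each marker counted once Adam28 was the nearer. The median log2 ratio of the markers was 0.74, beside 0.76 for Adam28 and 0.39 for Adam7. The marker values leave out the choice of scaling, which took Adam7 to 0.19 in TPM, where 7.88% of all genes were higher. The smallest log2 ratios of the list were 0.18 for Cst11, 0.21 for Rnase10 and 0.22 for Gpx5, and the markers were not rescaled. Within the list the ratios ran wider than between Adam7 and Adam28: the glutathione peroxidase gene Gpx5 was at 11686 FPKM in the KO-labelled and 10039 FPKM in the WT-labelled library, and the cystatin gene Cst12 at 393 and 13.6 FPKM. Cd79a, a defining marker of B cells, was near 0, at 0.48 FPKM in the KO-labelled and 0.78 FPKM in the WT-labelled library (10 and 16 fragments). The part of epididymal cell content in the difference of either gene was not tested.

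Adam7, Adamdec1 and Adam28 are neighbours on chromosome 14, with gaps of 29.6 kb and 23.9 kb and no other protein-coding gene between them in the table. Adamdec1 encodes a secreted protein known from human macrophages and dendritic cells. It was at 3.92 FPKM in the KO-labelled library and 2.20 FPKM in the WT-labelled library (137 and 76 fragments), a ratio of 1.79 (interval 1.34 to 2.39). All 3 neighbours were therefore higher in the KO-labelled library. The interval for the ratio of Adam28 over that of Adamdec1, 0.711 to 1.27, includes 1, so a difference between these neighbours was not detectable at this depth. In level they stood far apart, and Adamdec1 was the lowest. Macrophage markers had a summed ratio of 0.903 (interval 0.859 to 0.950). Of these 5, 0 were higher and 1 lower beyond counting error (20%), where 24.6% and 17.6% of all genes were. Csf1r, a macrophage growth factor receptor, was at 14.6 FPKM in the KO-labelled and 15.2 FPKM in the WT-labelled library. The part of macrophage content in the Adamdec1 value was not tested.

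**Figure D3:**
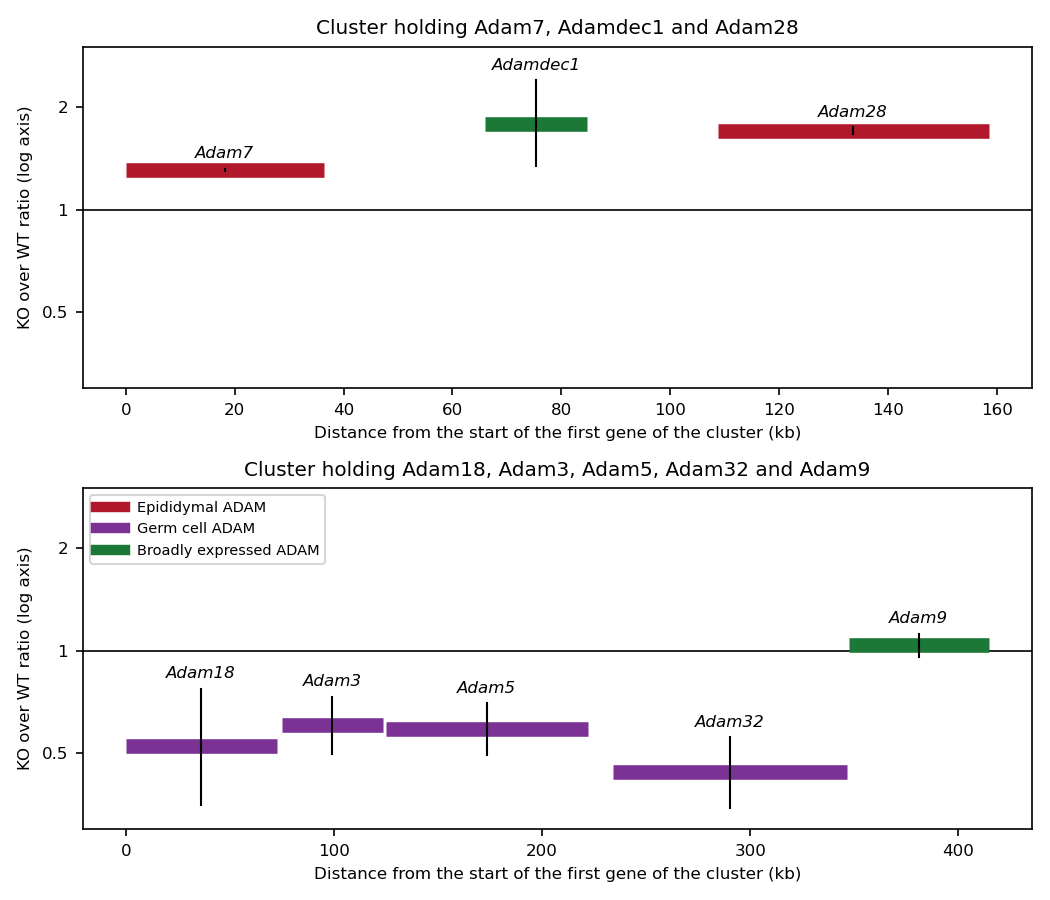
KO over WT ratio on a log axis (vertical) against distance from the start of the first gene in kb (horizontal) for 2 clusters of neighbouring ADAM genes. Thick bars span each gene and thin lines are exact 95% counting intervals. All 3 genes of the upper cluster lie above 1, and in the lower cluster the 4 germ cell genes lie at 0.605 or below beside Adam9 at 1.04.

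Germ cell ADAM genes went the opposite way. All 5 measured ones were lower beyond counting error in the KO-labelled library, where 17.6% of all genes were lower, with a median log2 ratio of −0.65. Each was at 1.24 FPKM or more in the KO-labelled library and 2.36 FPKM or more in the WT-labelled library. Adam2, which encodes the beta subunit of fertilin on sperm, was at 2.05 FPKM in the KO-labelled library and 4.72 FPKM in the WT-labelled library (79 and 180 fragments). Its ratio of 0.435 (interval 0.329 to 0.569) was the lowest of the measured members. The WT-labelled library held more of all 5 transcripts.

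Adam3 encodes cyritestin, which mouse sperm need to pass into the oviduct. It was at 4.11 FPKM in the KO-labelled library and 6.79 FPKM in the WT-labelled library, a ratio of 0.605 (interval 0.498 to 0.734). Adam5, a testis ADAM gene next to it, was at 4.60 FPKM in the KO-labelled and 7.80 FPKM in the WT-labelled library, a ratio of 0.590 (interval 0.494 to 0.703). Adam32, also of the testis, was at 2.36 FPKM in the KO-labelled and 5.35 FPKM in the WT-labelled library, with a ratio of 0.441 (interval 0.345 to 0.559). Adam18, a further testis gene, was at 1.24 FPKM in the KO-labelled and 2.36 FPKM in the WT-labelled library, from 42 and 79 fragments, with a ratio of 0.526 (interval 0.353 to 0.775). The 5 intervals overlapped one another. Adam2 and Adam32 were below a FPKM ratio of 0.5 but within 2-fold on the scale with the pseudocount, and passed 2-fold with a pseudocount of 0.1 FPKM.

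Of these, 4 lie side by side on chromosome 8 in the order Adam18, Adam3, Adam5 and Adam32, followed by the broadly expressed Adam9 (chr8:24602246-25016927 for the 5 genes). Only 0.806 kb separates Adam32 from Adam9, and no other protein-coding gene of the table lies in the cluster. Adam9, which encodes a widely expressed sheddase, was at 22.5 FPKM in the KO-labelled library and 21.7 FPKM in the WT-labelled library, a ratio of 1.04 (interval 0.961 to 1.12). The ratio of Adam32 was 0.424 times that of its neighbour Adam9 (interval 0.328 to 0.546). The cluster therefore held 4 lower genes and 1 whose interval included no difference.

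The remaining 15 germ cell ADAM genes were at 0.82 FPKM or less in the KO-labelled library and 0.95 FPKM or less in the WT-labelled one, and the interval of each included 1. Adam1b and Adam1a encode the alternative alpha subunits that pair with the product of Adam2 in mouse fertilin. Adam1b was at 0.82 FPKM in the KO-labelled and 0.95 FPKM in the WT-labelled library (39 and 45 fragments), with a ratio of 0.858 (interval 0.544 to 1.35). Adam1a was at 0.38 FPKM in the KO-labelled and 0.34 FPKM in the WT-labelled library (41 and 36 fragments). The ratio of Adam1b was 1.97 times that of Adam2 (interval 1.15 to 3.37), a comparison that leaves out Adam1a and covers counting error only. As Adam1a and Adam1b had the same letters in the zinc-site window, reads may have been split between them. Their single values, and the comparison of Adam1b with Adam2, are therefore uncertain.

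Adam4 had 16 fragments in each library, Adam30 had 16 in the KO-labelled and 29 in the WT-labelled library, and Adam24 had 10 and 9. The other 10 had fewer than 10 fragments in either library. Of these, 4 (Adam6a, Adam6b, Adam25 and Adam34) had 0 fragments in the KO-labelled library against 1, 2, 5 and 3 fragments in the WT-labelled one. A count of 0 allows up to 3 fragments, or 0.080 FPKM for Adam25, in the KO-labelled library, so differences in these genes were not detectable at this depth.

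**Figure D4:**
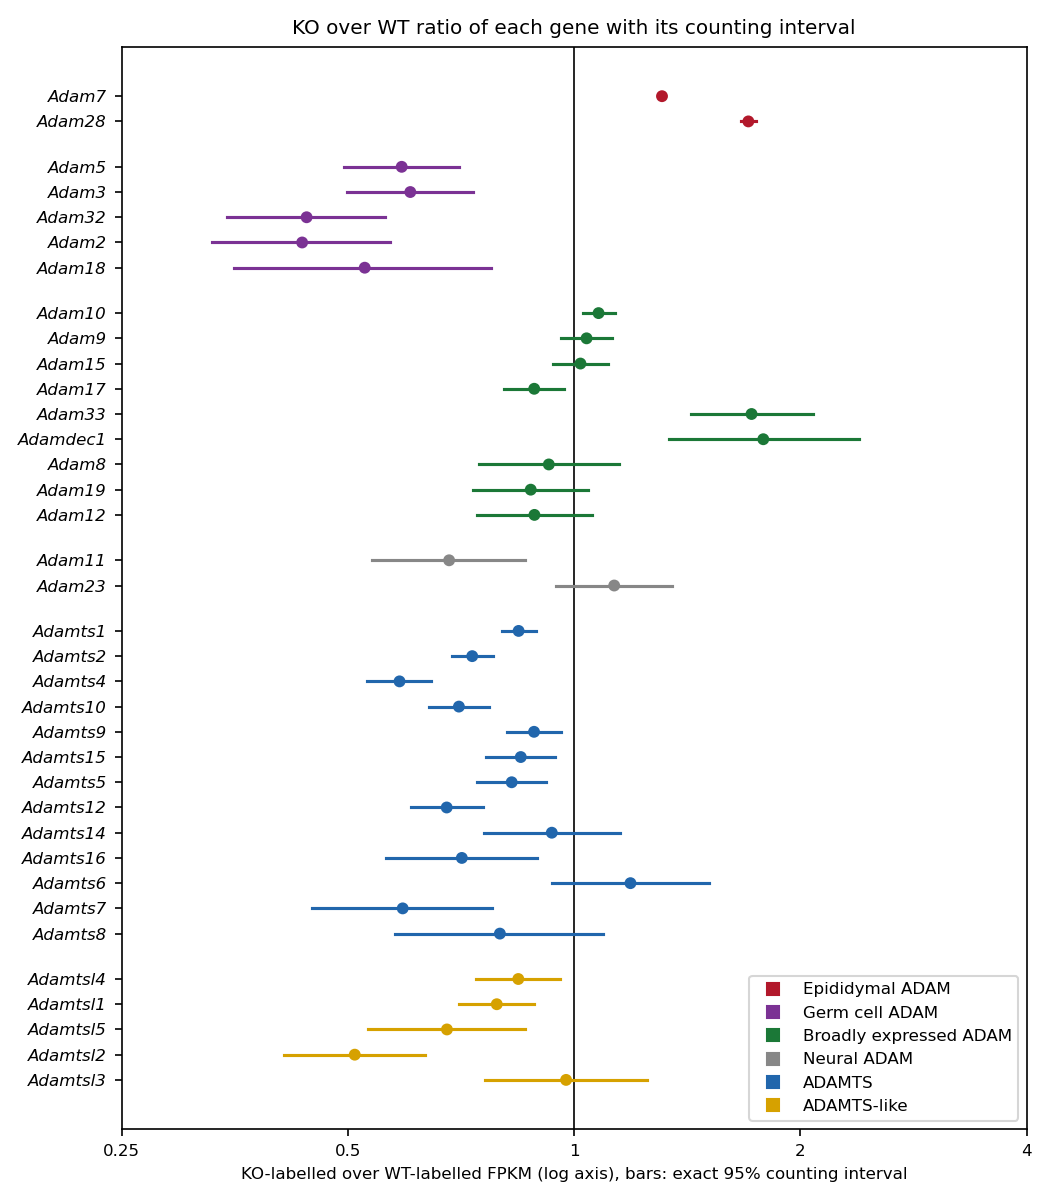
KO over WT ratio of FPKM on a log axis (horizontal) for each of the 36 measured members (vertical), with exact 95% counting intervals as bars and the vertical line at a ratio of 1. The 2 epididymal genes lie right of 1, the 5 germ cell genes left of it, and 10 of 13 ADAMTS intervals lie wholly left of it.

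Markers of germ cell stages did not all go the way of the germ cell ADAM genes. The spermatocyte list, genes of meiotic cells, had a summed ratio of 0.721 (interval 0.633 to 0.821), with 3 of 10 markers measured. Stag3 was at 2.76 FPKM in the KO-labelled and 3.44 FPKM in the WT-labelled library, Sycp3 at 0.72 and 1.28 FPKM and Spo11 at 1.34 and 0.88 FPKM. Below 1 FPKM, Sycp2 had 36 fragments in the KO-labelled and 116 in the WT-labelled library, a ratio of 0.307 (interval 0.205 to 0.450). Meiob, also below 1 FPKM, had 15 and 12 fragments, with an interval that included 1. The spermatid list, genes of maturing sperm, had a summed ratio of 4.07 (interval 3.72 to 4.46). Of its 9 measured markers, 8 were higher beyond counting error, where 24.6% of all genes were. The protamine gene Prm2 was at 54.1 FPKM in the KO-labelled and 5.21 FPKM in the WT-labelled library, whereas Spaca1, of the acrosome, was at 0.66 and 1.37 FPKM. Acrv1, also of the acrosome and below 1 FPKM, was at 0.19 FPKM in the KO-labelled and 0.43 FPKM in the WT-labelled library. The part of germ cell content or stage in the ADAM values was not tested.

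Genes known in the mouse to be needed for ADAM3 to mature on sperm did not share 1 direction. Of the 17 found in the table, 11 were measured, 3 were higher and 4 lower beyond counting error (27.3% and 36.4%, beside 24.6% and 17.6% of all genes), and the median log2 ratio was 0.01. The lower ones were Clgn, an endoplasmic reticulum chaperone of fertilin (2.66 FPKM in the KO-labelled and 4.72 FPKM in the WT-labelled library), Tex101 (0.63 and 1.79 FPKM), Cmtm2a (1.48 and 3.11 FPKM) and Cmtm2b (2.86 and 7.38 FPKM), all known from germ cells. The higher ones were Ovch2, an epididymal protease that acts in the processing of ADAM3, Ace, a peptidase of sperm and of many epithelia, and Rnase10, secreted by the proximal epididymis. Ovch2 was at 336 FPKM in the KO-labelled and 147 FPKM in the WT-labelled library, a ratio of 2.29 (interval 2.21 to 2.37). Ace was at 169 FPKM in the KO-labelled and 108 FPKM in the WT-labelled library, and Rnase10 at 1251 and 1082 FPKM. Ros1, the epididymal receptor that acts upstream of Ovch2, was at 40.2 FPKM in the KO-labelled and 39.7 FPKM in the WT-labelled library, with an interval of 0.970 to 1.06 that included 1.

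The class of broadly expressed ADAM genes had a median near that of all genes, with single members apart from it. Of 9 measured members, 3 were higher and 1 lower beyond counting error, where 24.6% and 17.6% of all genes were, and the median log2 ratio was 0.03. It was −0.062 relative to total fragments and −0.17 in TPM, a scale on which the median over all genes was also −0.17. Adam10, the main sheddase of Notch receptors and of the amyloid precursor protein, was at 47.9 FPKM in the KO-labelled library and 44.4 FPKM in the WT-labelled library (3366 and 3093 fragments). Its ratio was 1.08 (interval 1.03 to 1.13), and its log2 ratio was 0.11, but −0.094 in TPM. Adam17, which releases tumour necrosis factor, was at 8.53 FPKM in the KO-labelled and 9.64 FPKM in the WT-labelled library, a ratio of 0.885 (interval 0.807 to 0.970). Its exons share 311 bases, 4.35% of their length, with Iah1 on the other strand, which was at 59.3 FPKM in the KO-labelled and 47.3 FPKM in the WT-labelled library, and the library kit does not mark strand.

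Adam33, a gene of mesenchymal cells studied in human asthma, was at 4.06 FPKM in the KO-labelled library and 2.36 FPKM in the WT-labelled library (313 and 180 fragments), a ratio of 1.72 (interval 1.43 to 2.08). Smooth muscle markers had a summed ratio of 0.981 (interval 0.963 to 0.999), with Acta2 at 476 FPKM in the KO-labelled and 491 FPKM in the WT-labelled library. Of these 4 markers, 1 was higher and 2 lower beyond counting error (25% and 50%, beside 24.6% and 17.6% of all genes). The higher one was Cnn1, at 51.6 FPKM in the KO-labelled and 44.5 FPKM in the WT-labelled library. The part of smooth muscle content in the Adam33 value was not tested. Together with Adamdec1, Adam33 stood apart from the rest of its class. For Adam9, Adam15 (12.7 and 12.5 FPKM, KO-labelled first), the leukocyte gene Adam8 (2.58 and 2.79 FPKM), Adam19 (2.40 and 2.74 FPKM) and Adam12 (1.62 and 1.83 FPKM) the intervals included 1. The summed ratio of epididymal members was 1.30 times that of this class (interval 1.26 to 1.35), and the summed ratio of germ cell members 0.547 times (interval 0.496 to 0.602).

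Partners that carry ADAM10 and ADAM17 to the surface or activate them were mixed. Of 12 measured, 5 were higher and 2 lower beyond counting error, 41.7% and 16.7%, beside 24.6% and 17.6% of all genes, with a median log2 ratio of 0.07. Pcsk5, a proprotein convertase, was at 17.5 FPKM in the KO-labelled and 11.9 FPKM in the WT-labelled library, whereas the related Pcsk6 was at 4.93 and 6.79 FPKM. Rhbdf1, an iRhom that escorts ADAM17, was at 15.4 FPKM in the KO-labelled and 17.8 FPKM in the WT-labelled library, a ratio of 0.862 (interval 0.797 to 0.932). Tspan14, a tetraspanin that escorts ADAM10, was at 45.8 FPKM in the KO-labelled and 44.8 FPKM in the WT-labelled library, with an interval that included 1.

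Shed substrates of ADAM proteases had a median log2 ratio of −0.01, with 4 of 15 measured genes higher and 5 lower beyond counting error. These are 26.7% and 33.3%, beside 24.6% and 17.6% of all genes, so the higher share was near that of all genes. Among the higher ones were the chemokine gene Cx3cl1 (16.7 FPKM in the KO-labelled and 10.5 FPKM in the WT-labelled library) and the growth factor gene Egf (3.28 and 2.10 FPKM). Tnfrsf1b, a tumour necrosis factor receptor, was the lowest by log2 ratio, at 14.3 FPKM in the KO-labelled and 19.5 FPKM in the WT-labelled library. App, the amyloid precursor gene, was at 40.4 and 39.6 FPKM in that order of libraries.

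Matrix ADAMTS genes were lower as a class. Of 13 measured, 10 were lower and 0 higher beyond counting error in the KO-labelled library, where 17.6% and 24.6% of all genes were, and the median log2 ratio was −0.24. The proteoglycanases, which cut versican and aggrecan, made up 6 of the 13, and 5 of these were lower. Adamts1 was the most abundant ADAMTS gene, at 35.2 FPKM in the KO-labelled library and 41.7 FPKM in the WT-labelled library, a ratio of 0.844 (interval 0.801 to 0.889). Adamts4, an aggrecanase, was at 9.45 FPKM in the KO-labelled library and 16.1 FPKM in the WT-labelled library (650 and 1099 fragments), a ratio of 0.586 (interval 0.531 to 0.646), the lowest of the 13 measured.

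Adamts5, the other main aggrecanase gene, lies 53.1 kb from Adamts1 on chromosome 16. It was at 4.26 FPKM in the KO-labelled and 5.16 FPKM in the WT-labelled library, a ratio of 0.826 (interval 0.744 to 0.917), and the intervals of these neighbours overlapped. Adamts9, a versican-cutting protease, was at 4.97 FPKM in the KO-labelled and 5.62 FPKM in the WT-labelled library. Adamts15, with the same substrate, was at 4.43 and 5.21 FPKM in that order of libraries. The sixth, Adamts8, was at 1.12 FPKM in the KO-labelled and 1.41 FPKM in the WT-labelled library, with an interval that included 1. All 6 measured proteoglycanase genes thus had their lower value in the KO-labelled library, 5 of them beyond counting error.

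Adamts2 encodes the enzyme that removes the amino-terminal propeptide of fibrillar procollagens. It was at 12.7 FPKM in the KO-labelled library and 17.3 FPKM in the WT-labelled library, a ratio of 0.732 (interval 0.687 to 0.780). Its relative Adamts14 was at 2.45 FPKM in the KO-labelled and 2.62 FPKM in the WT-labelled library, with an interval of 0.758 to 1.15. Adamts12 and Adamts7, whose products cut cartilage oligomeric matrix protein, were both lower: Adamts12 was at 3.48 FPKM in the KO-labelled and 5.15 FPKM in the WT-labelled library, and Adamts7 at 0.96 and 1.62 FPKM. Exons of Adamts7 share 122 bases, 1.94% of their length, with Tbc1d2b on the other strand, which was at 9.34 FPKM in the KO-labelled and 11.8 FPKM in the WT-labelled library. Adamts10, whose product binds fibrillin, was at 9.99 FPKM in the KO-labelled and 14.2 FPKM in the WT-labelled library, a ratio of 0.703 (interval 0.640 to 0.771). Adamts16 was at 1.34 FPKM in the KO-labelled and 1.89 FPKM in the WT-labelled library. Adamts6, at 1.40 FPKM in the KO-labelled and 1.18 FPKM in the WT-labelled library, was the only measured ADAMTS gene with the higher value in the KO-labelled library, and its interval of 0.935 to 1.51 included 1.

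Below 1 FPKM were 6 ADAMTS genes. Adamts19 was at 0.72 FPKM in the KO-labelled and 1.10 FPKM in the WT-labelled library, with an interval of 0.443 to 0.950. Adamts13, whose product cuts von Willebrand factor in blood, had 2 fragments in the KO-labelled and 12 in the WT-labelled library, a ratio of 0.165 with an interval of 0.018 to 0.741. The intervals of the other 4, Adamts3, Adamts17, Adamts18 and Adamts20, included 1. The summed ratio of all 19 ADAMTS genes was 0.745 times that of the broadly expressed ADAM genes (interval 0.715 to 0.777).

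ADAMTS-like genes resembled the ADAMTS class in size of difference. Of 5 measured, 4 were lower and 0 higher beyond counting error, where 17.6% and 24.6% of all genes were, with a median log2 ratio of −0.26. Adamtsl2, which encodes a fibrillin-binding protein mutated in human geleophysic dysplasia, was at 1.15 FPKM in the KO-labelled library and 2.26 FPKM in the WT-labelled library (132 and 256 fragments), a ratio of 0.511 (interval 0.411 to 0.632). Adamtsl5 was at 1.76 FPKM in the KO-labelled and 2.60 FPKM in the WT-labelled library, and Adamtsl1 at 2.92 and 3.70 FPKM. Adamtsl4, another fibrillin partner, was at 7.33 FPKM in the KO-labelled and 8.69 FPKM in the WT-labelled library, a ratio of 0.843 (interval 0.740 to 0.959). Adamtsl3 was at 1.20 FPKM in the KO-labelled and 1.23 FPKM in the WT-labelled library. The interval for the ratio of this class over that of the ADAMTS class, 0.916 to 1.07, included 1.

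Most measured substrates of ADAMTS proteases were lower too. Of 12 measured, 10 were lower and 0 higher beyond counting error, where 17.6% and 24.6% of all genes were, with a median log2 ratio of −0.37. Col3a1, of type III collagen, was at 312 FPKM in the KO-labelled and 481 FPKM in the WT-labelled library, and Fbn1, fibrillin, at 27.1 and 38.8 FPKM. The proteoglycan gene Vcan, versican, was at 5.70 FPKM in the KO-labelled and 7.22 FPKM in the WT-labelled library, whereas Acan, aggrecan, had 18 and 10 fragments, with an interval that included 1. Below 1 FPKM, Reln, the large matrix protein reelin, was higher beyond counting error, with 309 fragments in the KO-labelled and 222 in the WT-labelled library (interval 1.16 to 1.65). The list of inhibitors of these proteases, which also holds the receptor gene Lrp1, was split. Of 6 measured, 4 were lower and 2 higher beyond counting error. These are 66.7% and 33.3%, beside 17.6% and 24.6% of all genes. Lrp1 was among the lower ones, at 25.8 FPKM in the KO-labelled and 29.6 FPKM in the WT-labelled library. So, narrowly, was Timp2, with a ratio of 0.962 (interval 0.926 to 0.9997). The inhibitor gene A2m, below 1 FPKM, was also higher, with 43 fragments in the KO-labelled and 2 in the WT-labelled library (interval 5.55 to 181). Timp1 was at 12.0 FPKM in the KO-labelled and 18.2 FPKM in the WT-labelled library, and Timp3, the main tissue inhibitor of ADAMTS proteases, was at 19.8 and 17.4 FPKM. Markers of adipose progenitors, cells that also make matrix, had a summed ratio of 0.773 (interval 0.754 to 0.792). Of these 6 markers, 4 were lower and 2 higher by this rule, 66.7% and 33.3%, beside 17.6% and 24.6% of all genes. The part of these cells in the ADAMTS values was not tested.

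**Figure D5:**
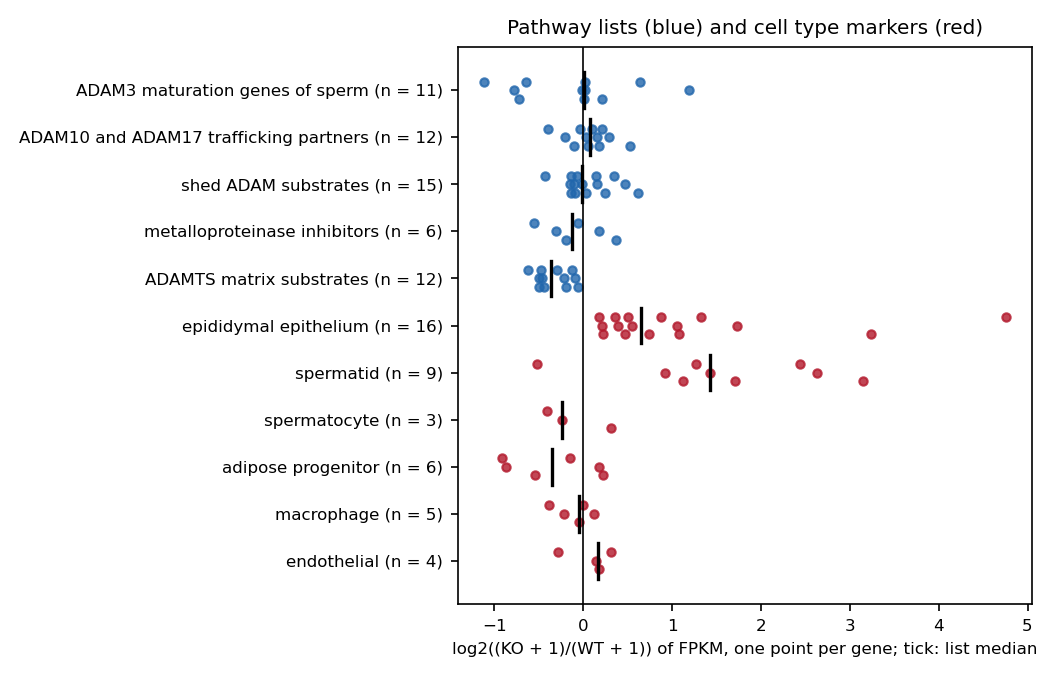
Log2((KO + 1)/(WT + 1)) of FPKM (horizontal, 1 point per measured gene, black tick at the list median) for 5 pathway lists in blue and 6 lists of cell type markers in red (vertical, with the number of measured genes). On the deposited scaling, all 16 epididymal markers lie right of 0, and all 12 measured ADAMTS substrates lie left of it with a median of −0.37.

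Neural ADAM genes, which encode receptors without protease activity, were low in both libraries. Adam11 was at 1.55 FPKM in the KO-labelled library and 2.28 FPKM in the WT-labelled library, a ratio of 0.682 (interval 0.539 to 0.860). Adam23 was at 1.07 FPKM in the KO-labelled and 0.95 FPKM in the WT-labelled library, and Adam22, a receptor for the secreted neuronal protein LGI1, at 0.63 and 0.62 FPKM. The intervals of Adam23 and Adam22 included 1.

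Ranked by mean level per length, the members ran from Adam7 through Adam28, Adam10, Adamts1 and Adam9 down to Adam23. Neighbours in this order among the first 6 were separated beyond counting error in both libraries for Adam7 and Adam28, Adam28 and Adam10, Adamts1 and Adam9, and Adam9 and Adamts2. In the WT-labelled library the intervals of Adam10 and Adamts1 overlapped. Of the members from Adamdec1 down, each overlapped its next neighbour in 1 library or both.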

How the data were processed

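The authors deposited 1 table of FPKM values with gene lengths, positions and biotypes. Per the labels' protocols, 1 µg of RNA went into each Illumina TruSeq library. The submitters' processing notes list HISAT2 2.0.5, mm10 and hg38. Which program counted fragments is not stated in the labels or the table. Of the 58 members, 57 had the same coordinates in GENCODE M21.

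Multiplying FPKM by gene length gave whole fragments for 100% of values above 0 (tolerance 0.01 of a fragment). On 1 kb of gene length, a fragment equalled 0.0699 FPKM in the KO-labelled and 0.0706 FPKM in the WT-labelled library. The deposited values scale the libraries by a KO over WT ratio of 1.01, against 1.08 for total fragments, and were used as deposited.

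Ratios, exact Clopper-Pearson intervals and odds ratios came from Python 3.11.15 and scipy 1.17.1, and the interval code was tested on simulated data. Intervals cover counting error only, as no molecular identifiers are mentioned. Measured members, and epididymal or germ cell members with at least 10 fragments in a library, were named by value. Of each list, up to 4 measured genes with the largest log2 ratio and the defining gene of a role could be named, and others were named after their values were seen. Members, classes and lists were chosen with earlier results of these data known. Alternatives were 2 other pseudocounts, no filter or one at 5 FPKM, TPM, total-fragment or median scaling, and a 99% interval.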

Additional observations from a re-analysis of the deposited data

How the results depend on the processing

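No paired analysis was possible because each genotype has 1 library, and for the same reason none could be left out. The median log2 ratio of germ cell members, −0.65, was −0.87 with a pseudocount of 0.1 FPKM, −0.42 with 5 FPKM and −0.11 with no filter on low values. That of matrix ADAMTS genes, −0.24, was −0.13 with a pseudocount of 5 FPKM, −0.42 with a minimum mean of 5 FPKM and −0.33 relative to total fragments, and that of epididymal members, 0.58, was 0.48 relative to total fragments. After rescaling to TPM, where the median of all genes was −0.17, the class medians were 0.38 for epididymal, −0.94 for germ cell, −0.17 for broadly expressed, −0.33 for neural, −0.45 for ADAMTS and −0.49 for ADAMTS-like genes. Relative to that shift they were 0.54, −0.77, −0.0020, −0.16, −0.28 and −0.33. Under TPM, Adam10 changed sign, to −0.094, as did Adam9 (−0.15), Adam15 (−0.17) and Adam23 (−0.019), whose intervals include 1 as deposited. Relative to total fragments, Adam9 (−0.039) and Adam15 (−0.062) did so. The count of members at least 2-fold lower was 2, Adam2 and Adam32, with a pseudocount of 0.1 FPKM and under TPM. Of all genes, 0.99% were at least 2-fold lower with that pseudocount and 1.41% under TPM. With a minimum mean of 5 FPKM, 14 members were left, of which 3 were higher and 9 lower beyond counting error, since fewer genes were counted. Of all genes under that filter, 30.3% were higher and 16.4% lower. With a 99% interval 5 members were higher and 21 lower, beside 18.7% and 12.6% of all genes. The cause of the other moves was not tested. Genes with few fragments set the limit: for 10 germ cell genes and Adamts18 no library held 10.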
